A study of Mus musculus with 12 samples.

Results

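The receptors for glutamate and GABA in mouse brain and spleen were examined through the mRNA of their subunits, in 3 *Norad+/+* and 3 *Norad-/-* mice per tissue. The genes were taken by a rule on their symbols, and the set was chosen with earlier results of these data known. They are the AMPA (*Gria*), kainate (*Grik*), delta (*Grid*), NMDA (*Grin*) and metabotropic (*Grm*) glutamate receptors and the subunits of the GABA-A receptor (*Gabr*). The rule found 45 genes among the 24062 in the tables. These are 4 *Gria*, 5 *Grik*, 2 *Grid*, 7 *Grin*, 8 *Grm*, 6 *Gabra*, 3 *Gabrb*, 3 *Gabrg* and 7 other *Gabr* genes.

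*Norad* is a long noncoding RNA that binds PUMILIO proteins, and the study compared mice with and without it. All animals were males of 10 weeks on a C57BL/6 background, and each library is 1 mouse. The *Norad-/-* mice carry a deletion of the locus in every cell, made with CRISPR/Cas9, and 3 knockout lines were established. Which line a mouse came from is not given in the sources used here. The methods of the study name brains and spleens from 3 mice of each genotype, without stating which libraries share an animal. The deleted gene checked the labels. *Norad* stood at 206, 259 and 635 FPKM in *Norad+/+* brain and at no more than 0.0121 FPKM in any *Norad-/-* brain, and at 62.0, 42.9 and 56.3 against no more than 0.0173 in spleen. The unit, FPKM, corrects the coverage of a gene for its transcript length and for the depth of the library.

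Fast excitation in the brain runs through tetramers of AMPA, kainate and NMDA receptor subunits, which open a cation channel when glutamate binds. Metabotropic receptors answer glutamate more slowly through G proteins. The GABA-A receptor is a pentameric chloride channel, usually built from alpha and beta subunits with a gamma or delta subunit, and it carries most fast inhibition. Each subunit gene has its own regional pattern. The alpha 6 subunit *Gabra6*, for example, is known as a gene of cerebellar granule cells.

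The labelled tissues were checked against fixed marker lists. The 5 pan-neuronal markers summed to between 1606 and 2165 FPKM in the brain libraries and to between 3.55 and 17.6 FPKM in the spleen libraries, and the 4 B cell markers to between 1129 and 1480 FPKM in spleen and at most 3.21 in brain. Depth, estimated from the FPKM of 1 read, ran from 28.4 to 36.7 M reads, so 1 read per kilobase is worth 0.0273 to 0.0352 FPKM. The *Norad+/+* replicate 3 stood apart from its tissue in both tables, with a median Spearman correlation to the others of 0.949 in brain and 0.948 in spleen, where all other libraries had at least 0.961. *Norad-/-* brain replicate 3 carried 1328 FPKM of 4 pituitary hormone genes, against at most 1.03 in the other brain libraries. These were bulk samples, in which fewer cells of a type and less RNA per cell cannot be told apart.

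PUMILIO proteins bind the element TGTANATA in 3' UTRs, the PUMILIO response element or PRE. It was searched on the transcript strand in 3' UTRs of GENCODE M21 (GRCm38), taking for each gene the longest one. All 45 subunit genes had a 3' UTR, and 22 of them (48.9%) held at least 1 PRE, against 24.0% of 19279 genes with a 3' UTR. The subunit genes have long 3' UTRs, with a median of 2137 bases against 1002, and per kilobase they held 0.330 PREs against 0.233. *Gabra2*, *Gabra3*, *Gabra4*, *Gabra5*, *Gabra6*, *Gabrb1* and *Gabrb2* each held a PRE, as did *Grm2* among the metabotropic receptors. The largest numbers were 6 in *Grin2b*, 5 in *Grin2a* and 5 in *Gabrb1*. A PRE found this way is a match of letters, and binding was not examined here. The study itself mapped PUM2 binding in brains of both genotypes by crosslinking and immunoprecipitation (eCLIP), and those data were not used.

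These 5 *Gabra* genes are shown because each of them holds the element. The site nearest to the stop codon is given for each, 5' to 3', with the PRE in capitals and 10 bases on either side.
*Gabra2*, chr5:70961668-70961695, minus strand: atgtatagtaTGTATATAtatataatgg
*Gabra3*, chrX:72433586-72433613, minus strand: acaaacagatTGTATATAtggtgtcctc
*Gabra4*, chr5:71569792-71569819, minus strand: cgggaaaatcTGTAAATAtgtttataca
*Gabra5*, chr7:57407737-57407764, minus strand: tttattgcccTGTACATAtttcatgatt
*Gabra6*, chr11:42307010-42307037, minus strand: acaaattttcTGTAAATAatattaataa

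The variable base of the element differs between them. *Grin2b*, which encodes the NMDA receptor subunit GluN2B, holds the most PREs, and they are spread along a 3' UTR of 18865 bases from position 531 to position 18770 after the stop codon.
*Grin2b*, chr6:135731550-135731577, minus strand: aggaagtcgtTGTATATAtataagccaa
*Grin2b*, chr6:135729676-135729703, minus strand: ttatttggtaTGTAAATAttttgttttc
*Grin2b*, chr6:135726913-135726940, minus strand: cacacactcaTGTACATAgtttataaac
*Grin2b*, chr6:135722685-135722712, minus strand: ttctaatagaTGTAGATAatattaatcc
*Grin2b*, chr6:135713693-135713720, minus strand: tttggttttcTGTAAATAtcgatttctt
*Grin2b*, chr6:135713311-135713338, minus strand: gtataaaagcTGTACATAgtcaaagatc

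*Gabrb1*, which encodes the beta 1 subunit, is shown because it had the largest fold change and the largest spread of the brain-expressed subunits. Its 5 PREs lie in a 3' UTR of 12228 bases.
*Gabrb1*, chr5:72139556-72139583, plus strand: ccaaaaatgaTGTAAATAaaacataaaa
*Gabrb1*, chr5:72140572-72140599, plus strand: ttgtaaattcTGTACATAgttcactgaa
*Gabrb1*, chr5:72140650-72140677, plus strand: actgaagcacTGTAAATAtcatacgctt
*Gabrb1*, chr5:72146089-72146116, plus strand: ccagtactctTGTAAATAtttggcctca
*Gabrb1*, chr5:72148971-72148998, plus strand: aatttactgcTGTAAATAtgtacaattt

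In *Norad+/+* brain the receptor mRNA was unevenly divided. *Grin1*, the obligatory NMDA receptor subunit, was among the highest at 135 ± 6.405 FPKM (SD, n = 3). The AMPA receptor subunits *Gria1* and *Gria2* stood at 108 ± 2.67 and 98.3 ± 11.1 FPKM. These 2 overlapped between libraries, and *Grin1* lay above both without overlap. Of the 44 neighboring pairs in the order of levels, 30 overlapped.

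A middle group lay between 10 and 60 FPKM. *Gabra6*, *Gabrb2*, *Gria3* and *Gria4* ranged from 56.3 down to 44.4 FPKM, and each overlapped with the next. *Gabra3* stood at 37.1 ± 1.09 FPKM and *Grik5*, a kainate receptor subunit that needs a partner to form a channel, at 31.4 ± 2.92. The kainate receptor subunit *Grik1* was lower, at 5.96 ± 0.958, as was *Grik4*, at 5.92 ± 0.501. *Gabrd*, the extrasynaptic delta subunit, stood at 15.96 ± 0.998.

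Among the NMDA receptor genes *Grin2c* had 18.04 ± 1.03 FPKM, *Grin2b* 9.66 ± 2.48 and *Grin2a* 2.11 ± 0.434. *Grin2b* and *Grin2a* have the longest and the third longest 3' UTR of the genes tested, and FPKM is divided by transcript length, so these levels depend on the transcript models used by the authors. The 7 members *Gabre*, *Gabrp*, *Gabrr1*, *Gabrr2*, *Gabrr3*, *Grin3b* and *Grm6* had a mean below 1 FPKM over the 6 brain libraries and were not tested there. *Grm6*, the receptor of retinal ON bipolar cells, was listed at 0 in all 3 *Norad+/+* brains.

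**Figure D1:**
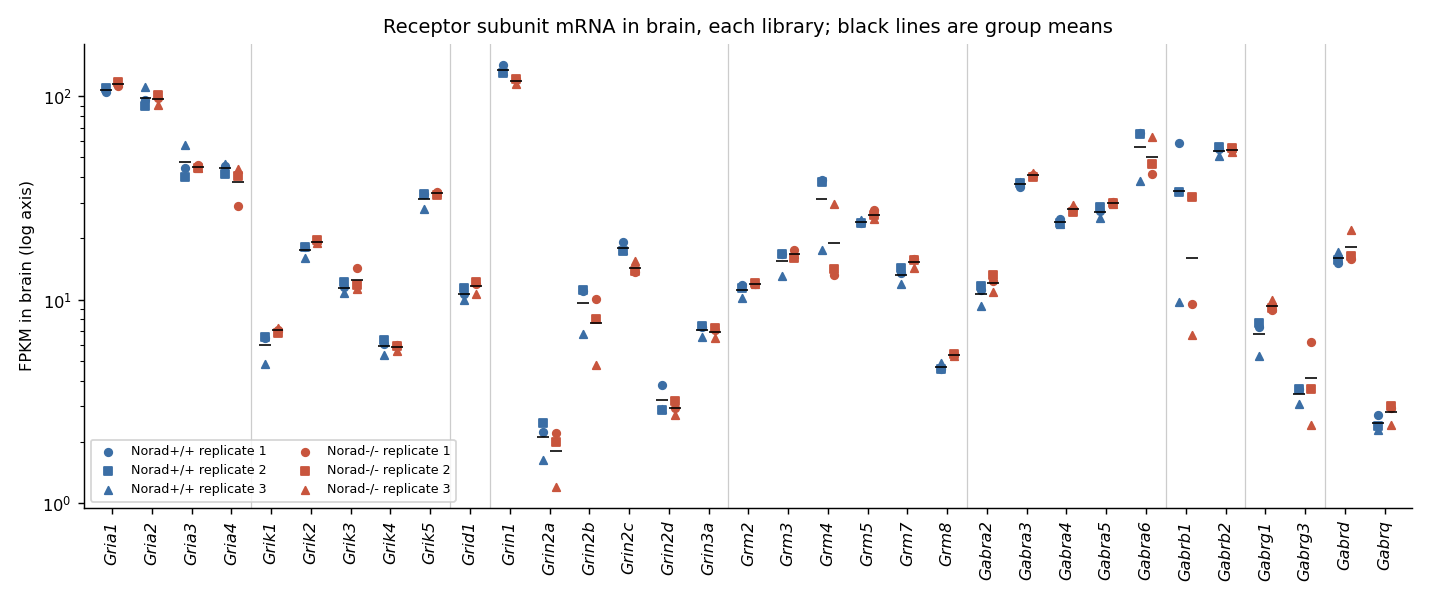
FPKM (log axis) in every brain library for 33 subunit genes, ordered by family, with *Norad+/+* in blue, *Norad-/-* in red, one symbol per replicate number and group means as black lines. *Grin1*, *Gria1* and *Gria2* were high, most genes lay within a narrow band across the 6 libraries, and *Gabrb1* spread from 6.69 to 58.8 FPKM.

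The main comparison asked whether brains without *Norad* differed in receptor subunit mRNA. No gene passed the threshold. Of the 38 genes tested, 0 passed an adjusted p of 0.05 in limma, where 0.0153% of all 13051 genes tested did. At an unadjusted p under 0.05, 1 was higher, *Gabrg1*, and 1 lower, *Grin2c*, with backgrounds of 3.73% and 2.89% of all genes. The log2 fold change lay above 0 in 22 and below 0 in 16, with 55.1% of all genes above 0. Its median was 0.10, against 0.02 over all genes. Without *Norad-/-* replicate 1 the medians were 0.0274 and 0.0374, the one over all genes being the higher. The 95% interval lay within -1 and 1 for 35 of the 38 genes, and the other three were *Gabrb1*, *Grm4* and *Grin2b*.

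The genotype groups did not overlap in 10 genes that were higher in *Norad-/-* brain and in 2 that were lower, with backgrounds of 10.6% and 6.56%. The 10 were *Gabrg1*, *Gabra4*, *Grm8*, *Grik1*, *Gabra3*, *Gabra5*, *Grik2*, *Grm5*, *Grm2* and *Gria1*, and the 2 were *Grin2c* and *Grin1*. The sizes were small. Apart from *Gabrg1*, the higher genes had log2 fold changes from 0.10 to 0.25. Without *Norad+/+* replicate 3, in which the subunits lay at a median of -0.15 from their mean over the libraries (log2 scale), the counts were 12 higher and 12 lower, beside backgrounds of 20.7% and 13.6%.

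**Figure D2:**
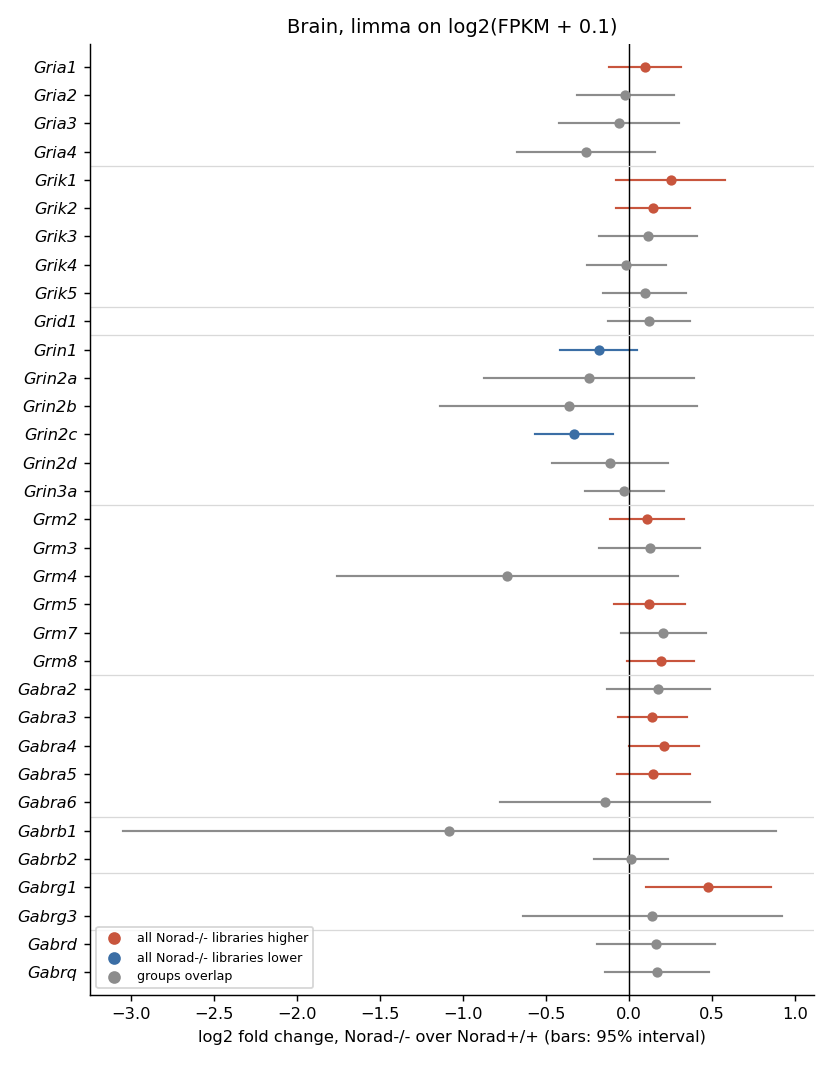
Log2 fold change of *Norad-/-* over *Norad+/+* brain for 33 subunit genes, with 95% intervals from limma. Red points are genes with all *Norad-/-* libraries above all *Norad+/+* libraries, blue points the reverse and grey points genes whose groups overlap. All 6 *Grin* genes lie left of 0 on this scale (*Grin3a* is at 0.0021 on the TPM scale), and *Gabrb1* has the widest interval, -3.05 to 0.89.

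The NMDA receptor genes were the family in which every tested gene had a negative fold change. All 6 lay below 0, with a median of -0.21 and a range from -0.36 to -0.03. *Grin3a* turned to 0.0021 on the TPM scale, and the other 5 kept their sign under every scaling. Without *Norad-/-* replicate 3, the library with pituitary mRNA, the median was -0.0596 and 2 of the 6 lay above 0. None passed the threshold. *Grin1* had 142, 129.9 and 133 FPKM in the *Norad+/+* and 121, 121 and 115 in the *Norad-/-* brains. Every *Norad-/-* library was below every *Norad+/+* library (log2 fold change -0.18, SE 0.0955, adjusted p = 0.718). *Grin1* shares 1307 exon bases with an antisense gene, *Grin1os*, and the use of strand in the counting is not given in the sources used here.

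*Grin2c* encodes GluN2C, a subunit known from cerebellar granule cells and from some interneurons and astrocytes. It lies at chr11:115249169-115267243 on the minus strand. Its levels were 19.2, 17.3 and 17.6 FPKM in the *Norad+/+* and 13.7, 13.9 and 15.5 in the *Norad-/-* brains. The groups did not overlap (log2 fold change -0.33, SE 0.0977, adjusted p = 0.6897, interval -0.56 to -0.09). Leaving out any 1 library gave log2 fold changes from -0.38 to -0.28. The 8 cerebellar markers, which include genes of granule and Purkinje cells, summed to 614, 579.5 and 383 FPKM in *Norad+/+* and 381, 411 and 579 in *Norad-/-* brain. The sums overlapped, while 7 of the 8 markers had a fold change below 0 and 1 of them was lower without overlap. With these markers as a covariate, chosen after seeing the data, the log2 fold change of *Grin2c* was -0.30. The summed level of the 4 choroid plexus markers, all present, was lower without overlap, as *Grin1* and *Grin2c* were, at 390.4, 609.8 and 644 FPKM in *Norad+/+* and 379, 360.0 and 378 in *Norad-/-* brain. Most of this sum was *Ttr*, at 373, 593 and 632 FPKM in *Norad+/+* and 366, 346 and 365 in *Norad-/-* brain. Of the 4 only *Ttr* was lower without overlap. *Kl* and *Kcnj13* overlapped between genotypes, and *Folr1* lay above 0, at 0.04. The part of either list in these values was not tested further.

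*Grin2b* and *Grin2a* overlapped between genotypes. *Grin2b* stood at 11.1, 11.1 and 6.804 FPKM in the *Norad+/+* and 10.1, 8.07 and 4.78 in the *Norad-/-* brains, and *Grin2a* at 2.24, 2.46 and 1.63 FPKM in the *Norad+/+* and 2.201, 1.998 and 1.203 in the *Norad-/-* brains. Both were lowest in replicate 3 of each genotype. Their log2 fold changes were -0.36 (interval -1.14 to 0.41) and -0.24 (interval -0.87 to 0.39), and without *Norad-/-* replicate 3 they were -0.0630 and 0.0107. These 2 genes, and *Grik2*, *Gabra6*, *Gabrb1*, *Gabrg3* and *Grm6*, are described library by library after their values had been seen.

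The AMPA receptor genes had fold changes near 0, apart from *Gria4*. *Gria1* had 105, 109.8 and 108 FPKM in the *Norad+/+* and 112, 118 and 116 in the *Norad-/-* brains. The groups did not overlap, but the step between them was small (log2 fold change 0.10, SE 0.0904, adjusted p = 0.7796). *Gria2*, whose edited subunit keeps the channel closed to calcium, had a log2 fold change of -0.02 (interval -0.31 to 0.27), and *Gria3* of -0.06. *Gria4* had -0.26, and its lowest library was *Norad-/-* replicate 1 at 28.9 FPKM, where the other 5 had 40.4 to 46.3. Without that library the log2 fold change of *Gria4* was -0.0747.

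Of the 5 kainate receptor genes 4 lay above 0. *Grik1*, which encodes GluK1, had 6.503, 6.52 and 4.85 FPKM in the *Norad+/+* and 7.06, 6.84 and 7.26 in the *Norad-/-* brains. All *Norad-/-* libraries were higher, and *Norad+/+* replicate 3 was the lowest (log2 fold change 0.25, SE 0.136, adjusted p = 0.718). Without that library the log2 fold change of *Grik1* was 0.11. *Grik5* had 33.1, 33.04 and 27.98 FPKM in the *Norad+/+* and 33.7, 32.8 and 33.8 in the *Norad-/-* brains. Apart from *Norad+/+* replicate 3, its 5 libraries lay between 32.8 and 33.8 FPKM (log2 fold change 0.10, SE 0.104, adjusted p = 0.7997), and without it the log2 fold change was 0.0166. *Grik4* had a log2 fold change of -0.02 and *Grik3* of 0.11, which was 0.00852 without *Norad-/-* replicate 1. The delta receptor gene *Grid1* had 0.12, and 0.0692 without *Norad+/+* replicate 3.

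Among the metabotropic receptors *Grm8*, a presynaptic receptor that lowers glutamate release, had 4.57, 4.58 and 4.901 FPKM in the *Norad+/+* and 5.41, 5.41 and 5.26 in the *Norad-/-* brains. The groups did not overlap and the spread within them was small (log2 fold change 0.19, SE 0.0833, adjusted p = 0.718). *Grm5*, which signals through Gq at postsynaptic sites, had a log2 fold change of 0.12 (interval -0.09 to 0.34), and *Grm2* and *Grm3*, which inhibit adenylyl cyclase, had 0.11 and 0.13. *Grm7* had 0.21. Without *Norad+/+* replicate 3 the log2 fold change was 0.0502 for *Grm2*, 0.00743 for *Grm3* and 0.13 for *Grm7*.

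*Grm4*, which is known from the terminals of cerebellar granule cells, had the second largest fold change. It stood at 38.5, 37.99 and 17.6 FPKM in the *Norad+/+* and 13.2, 14.2 and 29.6 in the *Norad-/-* brains. *Norad+/+* replicates 1 and 2 and *Norad-/-* replicate 3 were high, the other 3 libraries were low, and the groups overlapped (log2 fold change -0.73, SE 0.425, adjusted p = 0.718, interval -1.76 to 0.29). *Gabra6* had 65.8, 65.00 and 38.2 FPKM in the *Norad+/+* and 41.6, 46.4 and 62.8 in the *Norad-/-* brains, high in the same 3 libraries. The sum of the 8 cerebellar markers, all of them present, was also highest in these 3 libraries, at 614, 579.5 and 579 FPKM. It lay between 381 and 411 in the other 3. Singly, *Cbln1*, *Zic2*, *Pcp2* and *Car8* were highest in the 3 high libraries, while *Cbln3*, *Fat2*, *Neurod1* and *Zic1* had other orders. *Neurod1* was highest in *Norad+/+* replicate 3, at 64.2 FPKM. With the mean of all 8 markers as a covariate, chosen after seeing the data, the log2 fold change was -0.45 for *Grm4* and 0.03 for *Gabra6*. The part of the cerebellar markers in these values was not tested further.

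**Figure D3:**
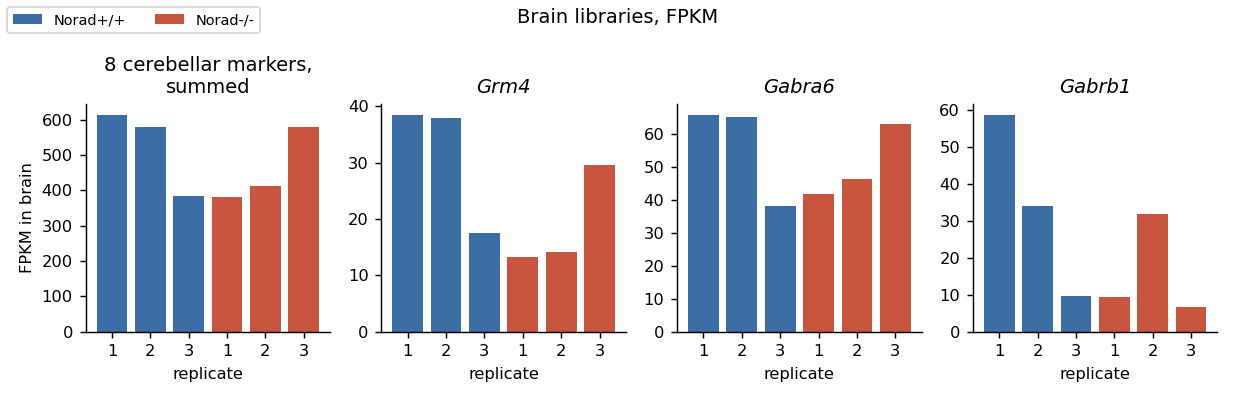
FPKM in each of the 6 brain libraries (bars, replicates 1 to 3 of *Norad+/+* in blue and of *Norad-/-* in red) for the sum of 8 cerebellar markers and for *Grm4*, *Gabra6* and *Gabrb1*. *Grm4* and *Gabra6* are high where the marker sum is high, and *Gabrb1* has another order, with 58.8 FPKM in *Norad+/+* replicate 1.

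GABA-A receptor genes lay above 0 in 11 of the 14 tested, beside 55.1% of all genes, with a median log2 fold change of 0.15. The same number did so on the TPM scale and after quantile normalization. It was 10 of 14 without *Norad-/-* replicate 1, *Norad-/-* replicate 2 or *Norad+/+* replicate 3, with medians of 0.14, 0.11 and 0.11. With all libraries, those below 0 included *Gabra6* and *Gabrb1*. *Gabrg1*, which encodes the gamma 1 subunit and lies at chr5:70751047-70842617 on the minus strand, had 7.32, 7.64 and 5.28 FPKM in the *Norad+/+* and 8.92, 9.14 and 9.91 in the *Norad-/-* brains. All *Norad-/-* libraries were higher (log2 fold change 0.48, SE 0.157, adjusted p = 0.705, interval 0.10 to 0.86). Without *Norad+/+* replicate 3, the lowest library, the log2 fold change was 0.31, and no alternative gave an adjusted p below 0.217.

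The alpha subunits *Gabra3*, *Gabra4* and *Gabra5* did not overlap between genotypes. *Gabra4*, which forms extrasynaptic receptors with the delta subunit, had 25.04, 23.7 and 23.6 FPKM in the *Norad+/+* and 27.8, 26.9 and 29.03 in the *Norad-/-* brains (log2 fold change 0.21, SE 0.0872, adjusted p = 0.718). *Gabra3* had 35.9, 37.6 and 37.9 FPKM in the *Norad+/+* and 40.8, 40.3 and 41.9 in the *Norad-/-* brains (log2 fold change 0.14, SE 0.0855, adjusted p = 0.718). *Gabra5*, a subunit prominent in hippocampus, had 27.3, 28.5 and 25.2 FPKM in the *Norad+/+* and 30.2, 29.96 and 29.5 in the *Norad-/-* brains (log2 fold change 0.15, SE 0.0909, adjusted p = 0.719). The lowest *Norad-/-* and highest *Norad+/+* libraries were 40.3 and 37.9 FPKM for *Gabra3*, 26.9 and 25.04 for *Gabra4* and 29.5 and 28.5 for *Gabra5*. *Gabra2* had a log2 fold change of 0.18, and of 0.0770 without *Norad+/+* replicate 3.

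*Gabrb2* had a log2 fold change of 0.01 (interval -0.21 to 0.23). *Gabrd* had 15.1, 15.7 and 17.1 FPKM in the *Norad+/+* and 15.8, 16.4 and 21.9 in the *Norad-/-* brains, with *Norad-/-* replicate 3 highest (log2 fold change 0.16, SE 0.147, adjusted p = 0.777). Without that library its log2 fold change was 0.0158. *Gabrq*, the theta subunit, had a log2 fold change of 0.17.

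*Gabrb1* varied more than any other subunit gene. It stood at 58.8, 33.98 and 9.78 FPKM in the *Norad+/+* and 9.53, 31.95 and 6.69 in the *Norad-/-* brains. Neither genotype was uniform, the groups overlapped, and the log2 fold change of -1.08 had an interval from -3.05 to 0.89. Without 1 library it ran from -1.81 (*Norad+/+* replicate 3) to -0.52 (*Norad+/+* replicate 1). Its SD within genotypes was 1.25 on the log2 scale, larger than in 99.5% of all genes tested. *Gabra4*, its neighbor on chromosome 5, which begins next to it on the other strand and shares 46 exon bases with it, had an SD of 0.0518, larger than in 3.43% of all genes.

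The make-up of each receptor was compared as the share of 1 subunit in the summed FPKM of its family. *Gria2* made up 32.98% ± 1.25 (SD, n = 3) of the *Gria* genes against 32.8% ± 1.995. *Grin2a* made up 6.37% ± 0.855 of the *Grin2* genes against 6.66% ± 1.46, and *Grik5* 43.4% ± 0.3999 of the *Grik* genes against 42.8% ± 0.946. The genotypes overlapped in each of these 3 shares. The smallest two-sided exact permutation p of the 3 was 0.5, the adjusted p was at least 0.96, and 3 mice against 3 cannot give a p below 0.1.

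Fold changes in brain were then set beside the number of PREs. The 12 tested genes with 2 or more PREs had a median log2 fold change of 0.05, with 6 above 0 and 6 below, and 0 had groups that did not overlap. The 8 tested genes with 1 PRE had a median of 0.14, with 7 above 0 and 5 higher without overlap. The 18 with none had a median of 0.04, with 9 above 0, 5 higher without overlap and 2 lower. The shares over all genes without overlap were 10.6% higher and 6.56% lower. The 3 genes with 5 or 6 PREs, *Gabrb1*, *Grin2a* and *Grin2b*, all lay below 0, at -1.08, -0.24 and -0.36, and each of them had overlapping groups and an interval that includes 0. The genes share libraries and 3' UTR lengths differ between these groups, so no test was made.

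The other proteins of these synapses were counted from 6 lists of 61 genes. Of the 60 tested in brain 0 passed the threshold, 7 were higher and 5 lower without overlap between groups, and 5 had an unadjusted p under 0.05. Over all genes 10.6% were higher and 6.56% lower without overlap, and 6.62% had such a p, so these counts lie near the background. *Slc6a13*, a GABA transporter of meninges and vessels, had 3.19, 3.27 and 2.62 FPKM in the *Norad+/+* and 4.43, 4.37 and 5.09 in the *Norad-/-* brains (log2 fold change 0.60, SE 0.125, adjusted p = 0.511). *Homer1*, which ties metabotropic receptors to their scaffold, had 39.2, 41.9 and 50.2 FPKM in the *Norad+/+* and 26.5, 32.02 and 34.9 in the *Norad-/-* brains (log2 fold change -0.49, SE 0.151, adjusted p = 0.6897). Neither pair of groups overlapped, and neither gene passed. Of the AMPA and kainate receptor auxiliary proteins, *Cacng2* (stargazin) had a log2 fold change of -0.42 and *Neto2*, a partner of kainate receptors, -0.31. *Glra2*, a glycine receptor subunit, had 0.30, and *Plcl1*, a binding partner of GABA-A receptor subunits, -0.29.

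The 7 markers of forebrain excitatory neurons, all of them present, summed to 778, 726 and 651 FPKM in *Norad+/+* and 1045, 988 and 937 in *Norad-/-* brain, without overlap. Within the list *Camk2a*, a kinase of the postsynaptic density, had a log2 fold change of 0.92 and *Neurod6* of -0.97, so its members differed in sign, and neither passed the threshold. Without *Camk2a* the other 6 markers summed to 367, 351 and 385 FPKM in *Norad+/+* and 349.9, 337 and 324 in *Norad-/-* brain, the opposite order. The 8 striatal markers summed to between 419 and 719 FPKM in *Norad+/+* and between 510.1 and 679 in *Norad-/-* brain. The part of these markers in the receptor values was not tested.

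In spleen most of the receptor genes were near 0. Levels in the 2 tissues come from separate tables, each scaled per library, and were not tested against each other. In 39 of the 45 genes every brain library was above every spleen library. *Gabrr1* and *Gabrr3* were listed at 0 in all 6 spleens, and 27 genes had a mean below 0.1 FPKM, which is a few reads per kilobase. The 6 genes that averaged 1 FPKM or more were *Gabra3*, *Gabrq*, *Gabrr2*, *Gria3*, *Grik5* and *Grin2c*. *Grm6* was the reverse of the rest. It had 0.799, 0.858 and 1.03 FPKM in the *Norad+/+* and 0.758, 0.901 and 0.708 in the *Norad-/-* spleens, above all 6 brain libraries, which had at most 0.00665 FPKM. *Grm6* shares 599 exon bases with an antisense gene, *Gm12660*, so reads of the 2 cannot be told apart if strand was not used.

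*Norad+/+* spleen replicate 3 carried the brain subunits at low levels. Over the 29 genes with at least 5 FPKM in *Norad+/+* brain and a mean under 1 FPKM in spleen, it held a median of 0.954% of the brain level. *Norad+/+* replicate 1 held 0.159%, and the other 4 spleens between 0.0208% and 0.0357%. In replicate 3 *Grin1* stood at 1.41 FPKM and *Gria2* at 1.06, and 27 of the 29 genes were higher there than in any other spleen. Across these 29 genes the Spearman correlation of its values with the brain levels was 0.830, against 0.0133 to 0.496 in the other 5, a description across genes of 1 library that are not independent.

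Marker lists moved with it. The 5 pan-neuronal markers summed to 17.6 FPKM in that library, 0.957% of their brain level, and to between 3.55 and 5.24 in the other spleens. The 8 cerebellar markers summed to 5.77 FPKM against at most 1.58, the 4 choroid plexus markers to 8.95 against at most 0.545, and 5 markers of pancreas and liver to 239 FPKM against at most 9.41. No marker of these 4 lists was at 0 in all 6 spleens. Without a filter on low values, 43 subunit genes could be tested in spleen, and 35 of them lay below 0. Their median log2 fold change was -0.32, against -0.04 over all genes of that fit. When *Norad+/+* replicate 3 was also left out, 28 of 42 did, with medians of -0.0691 and -0.00533. The share of all genes below 0 was not counted in these fits. As 27 of the 45 subunit genes averaged under 0.1 FPKM, many of these signs rest on few reads.

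**Figure D4:**
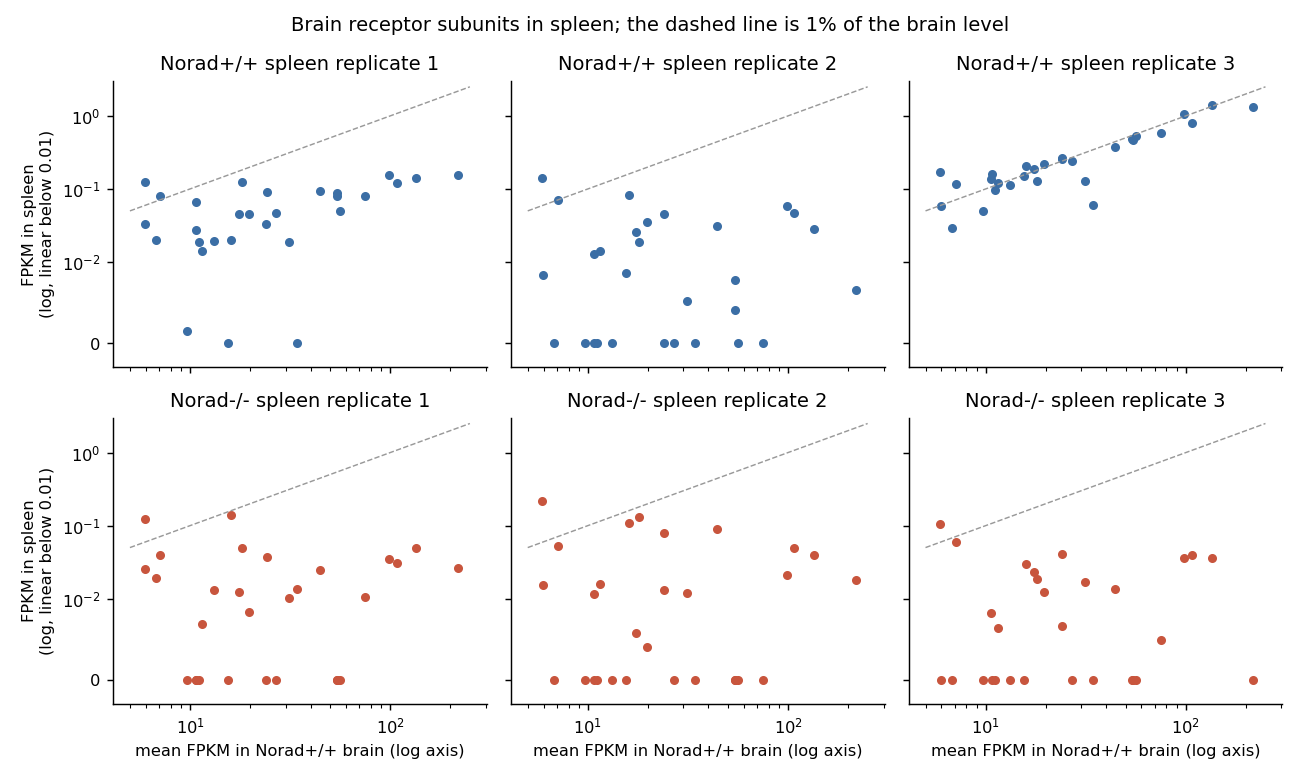
FPKM in each spleen library (log axis, linear below 0.01) against the mean FPKM in *Norad+/+* brain (log axis) for the 29 subunit genes with at least 5 FPKM in brain and under 1 FPKM in spleen. The dashed line marks 1% of the brain level. The points of *Norad+/+* replicate 3 follow it, with a median of 0.954%, and those of the other libraries lie below it with many values at 0.

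The 6 genes expressed in spleen were compared between genotypes. None passed an adjusted p of 0.05 in limma, where 0.0323% of 12397 genes did. Their log2 fold changes had a median of 0.17, with 4 above 0 and 2 below, against a median of -0.02 and 46.2% above 0 over all genes. *Gabrr2* alone had groups that did not overlap and was higher, beside a background of 11.6% higher and 14.9% lower. It was also the only one of the 6 with an unadjusted p under 0.05, which 7.42% of all genes reached in this direction.

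*Gabrr2* encodes the rho 2 subunit, which forms GABA-gated channels best known from the retina. It lies at chr4:33062999-33095865 on the plus strand. Its levels were 1.103, 0.991 and 0.792 FPKM in the *Norad+/+* and 1.75, 1.76 and 1.51 in the *Norad-/-* spleens, all *Norad-/-* libraries higher (log2 fold change 0.75, SE 0.175, adjusted p = 0.152, interval 0.32 to 1.17). In brain it stood at 0.801, 0.815 and 0.7897 and 0.849, 0.776 and 0.893 FPKM, with overlapping groups, below the filter. The 4 T cell markers, all present, separated the genotypes the same way, with sums of 163, 133 and 136 FPKM in the *Norad+/+* and 222, 239.9 and 198 in the *Norad-/-* spleens. With these markers as a covariate, chosen after seeing the data, the log2 fold change of *Gabrr2* was 0.22 (adjusted p = 0.916 in limma). The markers separate the genotypes without overlap, so this fit cannot tell genotype from T cell content, and no conclusion was drawn from it. With a pseudocount of 1 FPKM and no covariate the log2 fold change of *Gabrr2* was 0.45. Other lists differed as well. Of 21 marker lists, T cells alone were higher in *Norad-/-* spleen without overlap, and 5 were lower. The 5 included the lists of astrocytes, cerebellar neurons and choroid plexus. The cerebellar and choroid plexus sums reached only 5.77 and 8.95 FPKM, both in *Norad+/+* replicate 3, the library with brain subunits. Also among the 5 were the microglia markers, which macrophages share. Their sums were 425, 436 and 422 FPKM in the *Norad+/+* and 309, 294 and 340.4 in the *Norad-/-* spleens. Of the 5 microglia markers tested 3 were lower without overlap, and *Cx3cr1* lay above 0, at 0.14. *Tmem119*, not tested, was higher in all *Norad-/-* libraries, with 0.893, 0.836 and 0.736 FPKM in *Norad+/+* and 0.913, 1.69 and 0.912 in *Norad-/-* spleen. The natural killer cell markers had 76.9, 78.5 and 82.1 FPKM in the *Norad+/+* and 71.6, 58.7 and 63.2 in the *Norad-/-* spleens. Of these 4 markers 2 were lower without overlap, and *Eomes* lay above 0, at 0.20. The 7 markers of red cell precursors overlapped, at 484, 1191 and 1506 FPKM in the *Norad+/+* and 62.5, 52.4 and 616 in the *Norad-/-* spleens, and were lowest in *Norad-/-* replicates 1 and 2, where *Gabrr2* was highest. The part of these cells in the value of *Gabrr2* was not tested further.

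The other 5 genes overlapped between genotypes. *Gabra3* had 5.12, 4.77 and 5.203 FPKM in the *Norad+/+* and 4.196, 5.52 and 4.04 in the *Norad-/-* spleens (log2 fold change -0.14). *Gabrq*, its neighbor on the X chromosome, had 2.48, 1.72 and 1.52 FPKM in the *Norad+/+* and 2.64, 3.31 and 2.04 in the *Norad-/-* spleens (log2 fold change 0.46, interval -0.13 to 1.06). *Norad-/-* replicate 2 was the highest library for both.

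*Gria3* had 1.52, 1.43 and 1.69 FPKM in the *Norad+/+* and 1.72, 1.74 and 1.57 in the *Norad-/-* spleens (log2 fold change 0.11). *Grik5* had 1.93, 1.63 and 2.504 FPKM in the *Norad+/+* and 2.27, 2.63 and 2.15 in the *Norad-/-* spleens (log2 fold change 0.22), and *Grin2c* had 0.934, 1.53 and 1.74 FPKM in the *Norad+/+* and 1.12, 1.36 and 1.37 in the *Norad-/-* spleens (log2 fold change -0.08). *Norad+/+* replicate 3, the library with brain subunits, was the highest for *Grin2c*, at 1.74 FPKM, and without it the log2 fold change was 0.09.

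**Figure D5:**
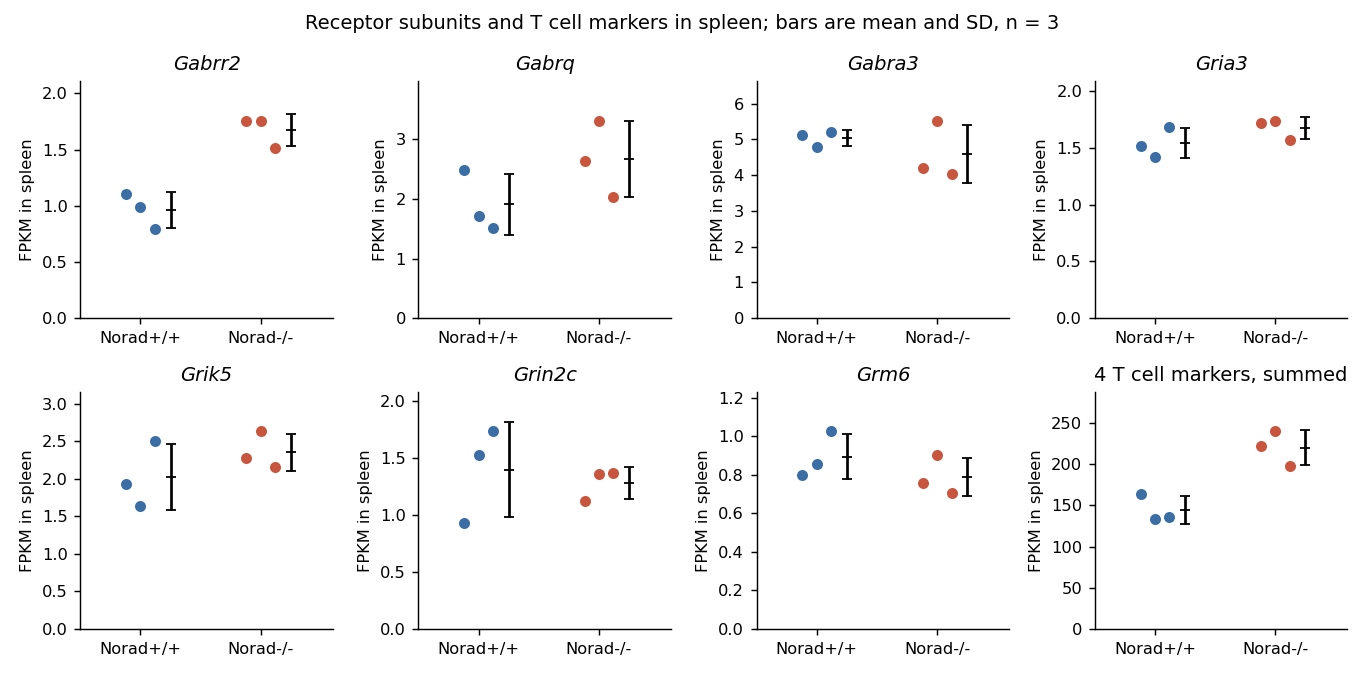
FPKM in each spleen library (points) with the group mean and SD (bars, n = 3) for the 6 subunit genes tested in spleen, for *Grm6* and for the sum of 4 T cell markers. *Gabrr2* and the T cell markers are the panels in which the genotypes do not overlap.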

How the data were processed

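The authors sequenced poly(A) RNA of brain and spleen (TruSeq Stranded mRNA, 75-base single reads), filtered reads, aligned them to GRCm38 with TopHat2 2.0.12 and kept unique matches. Their own test used featureCounts 1.4.6 and edgeR 3.8.6. The deposited values are FPKM from StringTie 1.2.2, per the submitters' processing notes. Of the value columns, 0 belong to no sample.

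Tests ran on log2(FPKM + 0.1), a scale on which low genes show too small a change. In each tissue limma 3.58.1 (R 4.3.3) was fitted, with a variance trend and no covariate, on all genes averaging 1 FPKM or more in its 6 libraries, and p was adjusted by Benjamini-Hochberg over all genes of the tissue. Subunit shares were compared by exact permutation over 20 assignments and adjusted over 6 shares, of which 3 are given. Each library is 1 mouse, so p-values measure the spread between mice. The fit was tested on simulated data, where it recovered 58% (brain) and 67.5% (spleen) of 200 genes given a log2 change of 1, and 88% and 88.5% of 200 given a change of 2. False calls numbered 5 and 5 in brain and 5 and 11 in spleen. Smaller changes were not simulated, while 33 of the 38 subunit genes tested in brain had an absolute log2 fold change under 0.3.

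All 45 genes matched GENCODE M21 by symbol, and PREs were read from its transcripts. Single results of 5 of the genes are not reported here, and they count only in totals. The members and gene lists were chosen with earlier results of these data known. Values in every library are given for genes that pass, for up to 6 per tissue and direction with the smallest p and no overlap, for the highest gene of each family in *Norad+/+* brain and for genes with at least 1 FPKM in spleen, and pathway genes are the 2 with the smallest p in brain per list, of which 6 are named. Of 21 marker lists those set beside a subunit gene or used to check a tissue are described. Depth was estimated from the FPKM of 1 read. As alternatives the pseudocount, the filter, the scaling and the variance model were changed, a replicate block was added and each library was left out. The marker covariates and the unfiltered fit without a spleen library were added after the data were seen. Tables and figures were made with Python 3.11.15, pandas 2.3.3, scipy 1.17.1 and matplotlib 3.10.9.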

Additional observations from a re-analysis of the deposited data

Results flagged for a closer look

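*Grik2*, which encodes the kainate receptor subunit GluK2, was flagged because its genotype groups separated in opposite directions in the 2 tissues. Over all genes 10.6% were higher without overlap in brain, and 13.0% were lower in spleen when no filter was used. The share of genes with both was not counted. In brain it had 18.2, 18.1 and 16.04 FPKM in the *Norad+/+* and 19.1, 19.6 and 19.1 in the *Norad-/-* brains, all *Norad-/-* libraries higher, a difference of 0.14 on the log2(FPKM + 0.1) scale. In spleen it had 0.0452, 0.0253 and 0.188 FPKM in *Norad+/+* and 0.0125, 0.00582 and 0.0232 in *Norad-/-* libraries, all *Norad-/-* libraries lower, a difference of -0.61. The lowest *Norad+/+* and highest *Norad-/-* spleen values, 0.0253 and 0.0232 FPKM, were both below 1 read per kilobase (0.0273 to 0.0352 FPKM). The difference between the tissues was not tested. The spleen values lie at or below a few reads per kilobase, and the highest of them came from *Norad+/+* replicate 3, which held the other brain subunits too. Groups of 3 are too small for a test of single outlying libraries.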

How the results depend on the processing

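No alternative brought a subunit gene past the threshold in either tissue, and the smallest adjusted p over all of them was 0.217 in brain and 0.0934 in spleen, the latter with a replicate block. Over all genes 2 passed in brain and 4 in spleen, and between 1 and 15 and between 1 and 93 under the alternatives. Of 39 fold changes 27 kept their sign throughout.

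The 12 genes without overlap in brain became 6 after quantile normalization, 5 higher and 1 lower, beside 10.6% and 7.3% of all genes. When a library was left out they were 13 to 24, the highest without *Norad+/+* replicate 3, and the median of 0.10 ranged from 0.0274 to 0.12. Leaving out a library also raised the shares over all genes, to 14.2% to 20.7% higher and 8.5% to 13.6% lower. In spleen the median of 0.17 was -0.32 without a filter, -0.0691 without a filter and without *Norad+/+* replicate 3, 0.33 after quantile normalization and 0.00994 with the T cell covariate, and ranged from 0.07 to 0.25 without 1 library. The count without overlap, 1, was then 9 (2 higher and 7 lower), 11 (4 higher and 7 lower) and 3 (all higher, quantile normalization), and 1 to 3. Over all genes 9.04% were higher and 13.0% lower without overlap when no filter was used. The shares were 14.3% and 15.8% when *Norad+/+* replicate 3 was also left out, and 18.7% and 10.1% after quantile normalization. With the filter and without 1 library they ran from 12.7% to 21.1% higher and from 16.7% to 29.6% lower. No spleen gene was left at a mean of at least 5 FPKM. TPM moved the median of all spleen genes from -0.02 to 0.10. The cause of these changes was not tested. The fit with the T cell covariate cannot tell genotype from T cell content, because the markers separate the genotypes.

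Without 1 library the difference in share ranged from -1.01 to 0.95 percentage points for *Gria2*, from -0.20 to 1.13 for *Grin2a* and from -1.12 to -0.20 for *Grik5*. Some fold changes turned sign. On the TPM scale *Gria2* was 0.00973, *Grik4* 0.0141, *Grin3a* 0.0021 and *Grin2c* in spleen 0.0377. After quantile normalization *Gria2* was 0.0201 and *Grin2c* in spleen 0.0844. With the cerebellar covariate *Gabra6* was 0.0312 and *Grik4* 0.0044. With the T cell covariate, which cannot be told apart from genotype, *Gabrq* was -0.85, *Gria3* -0.0033 and *Grin2c* 0.84. Without a filter and *Norad+/+* spleen replicate 3 *Grin2c* was 0.0882. Leaving out 1 library gave -0.0288 to 0.0430 for *Gabrb2*, -0.20 to 0.46 for *Gabrg3*, -0.0893 to 0.0671 for *Gria2*, -0.17 to 0.0913 for *Gria3*, -0.0839 to 0.0349 for *Grik4*, -0.41 to 0.0107 for *Grin2a*, -0.18 to 0.0199 for *Grin2d*, -0.0857 to 0.0235 for *Grin3a* and -0.33 to 0.0882 for *Grin2c* in spleen.

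Replicate numbers are shared between genotypes, but in neither tissue did every pair of samples deviate together (a correlation over 0.1), with correlations of 0.0610, 0.0684 and 0.110 in brain and 0.338, -0.147 and 0.290 in spleen. With a replicate block 0 subunit genes passed. Both genotypes hold the same replicate numbers, so the block cannot change a fold change. The medians of 0.10 and 0.17 were therefore the same by design.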

Other observations

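The spread of the subunit genes between mice of 1 genotype differed widely. In brain the within-genotype SD on the log2 scale ran from 0.0363 for *Gabra3* to 1.25 for *Gabrb1*. The 4 tested genes with the longest annotated 3' UTRs, *Grin2b*, *Gabrb1*, *Grin2a* and *Gabrg3*, were 4 of the 6 most variable, and the other two were *Grm4* and *Gabra6*. The next genes by 3' UTR length, *Gria2* and *Grik2*, were 22nd and 30th of 38. *Gabrg3* stood at 3.65, 3.65 and 3.07 FPKM in the *Norad+/+* and 6.22, 3.65 and 2.42 in the *Norad-/-* brains, highest in *Norad-/-* replicate 1 and lowest in *Norad-/-* replicate 3. No test was made of this order.

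Many subunit genes sit in clusters of neighbors. On chromosome 5 lie *Gabrg1*, *Gabra2*, *Gabra4* and *Gabrb1*, with log2 fold changes in brain of 0.48, 0.18, 0.21 and -1.08. On chromosome 11 lie *Gabra6* and *Gabrb2*, with -0.14 and 0.01. On chromosome 7 lie *Gabrg3* and *Gabra5*, with 0.14 and 0.15. None of these passed the threshold.

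In spleen 23 of the 61 genes of the synapse lists were tested, and 0 passed. Of these, 2 were higher and 5 lower without overlap between groups, and 5 had an unadjusted p under 0.05 in limma. Over all genes tested in spleen 11.6% were higher and 14.9% lower without overlap. At an unadjusted p under 0.05, 7.42% of all genes were higher and 13.6% lower. *Abat*, the enzyme that breaks down GABA, had 3.499, 3.32 and 4.25 FPKM in the *Norad+/+* and 2.21, 2.39 and 2.33 in the *Norad-/-* spleens (log2 fold change -0.65, adjusted p = 0.141 in limma). *Gabarapl1*, a protein of receptor trafficking and autophagy, had 27.8, 20.6 and 28.5 FPKM in the *Norad+/+* and 15.2, 18.4 and 18.4 in the *Norad-/-* spleens (log2 fold change -0.55, adjusted p = 0.179 in limma). Both were lower in all *Norad-/-* libraries, and both were singled out after their values were seen.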
